A study of Homo sapiens with 21 samples.

Results

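Respiratory complex I is the entry point of the mitochondrial electron transport chain. It takes electrons from NADH, passes them through a flavin and a chain of iron-sulphur clusters in its matrix arm to ubiquinone, and uses the energy to pump protons through its membrane arm. The core subunits of the membrane arm are encoded in mitochondrial DNA. The core subunits of the matrix arm, the accessory subunits and the assembly factors that build the complex are made from nuclear genes. The nuclear genes were described here: symbols of the array's annotation that start with NDUFA, NDUFB, NDUFC, NDUFS, NDUFV or NDUFAF followed by digits. This rule uses names and no measured value, and it found 39 genes among 19426. Of these, 6 encode core subunits, 9 accessory subunits of the matrix arm, 20 accessory subunits of the membrane arm and 2 assembly factors. NDUFA4 and its paralog NDUFA4L2 carry the family name too, although NDUFA4 is now placed in complex IV.

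The arrays came from MCF10A, an immortalised, non-tumorigenic human mammary epithelial line bought from a cell collection and used at low passage. All cells had spent 24 h without epidermal growth factor (EGF) and 24 h in 1% horse serum. The untreated group was taken at 0 min, and 6 further groups at 20, 40, 60, 120, 240 and 480 min after EGF at 20 ng/ml, with 3 biological replicates in each of the 7 groups and 21 arrays in all. There were no untreated arrays at the later times, so EGF cannot be told apart from handling or time in culture. The basal epithelial markers were strongly present, with KRT5 at a median log2 level of 12.43 and TP63 at 9.30, and 94.7% and 88.5% of their probesets above the signal filter. Markers of other cells were mixed. Of the luminal genes, KRT8, KRT18, FOXA1 and KRT19 had 100% of probesets above the filter, ESR1 53.3% and PGR 12.5%. KRT8 stood at a median log2 level of 9.91, above TP63, and KRT18 at 8.95. Of the fibroblast genes, COL1A1 had 93.4%, DCN 63.2%, COL1A2 59.1%, PDGFRB 57.6%, THY1 31.8% and LUM 0% of probesets above the filter, and of the leukocyte genes CD14 had 71.4%, CD3E 40% and PTPRC 14.9%. The summed intensity of the luminal markers went from between 1387 and 1528 at 0 min to between 1886 and 2079 at 120 min, and that of the fibroblast markers from between 319.7 and 356.2 to between 247.2 and 255.8 at 480 min. The part of these shifts in the results was not tested.

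A level below is log2(intensity + 16), taken as the median over a gene's probesets (the array's short target regions) whose mean signal reached the median of the whole array. A change is the difference from the 3 untreated arrays on that scale, ± limma's standard error, and it understates the change of weakly expressed genes. A gene is called when its Benjamini-Hochberg adjusted p over all 16614 genes tested is under 0.05. All 39 genes passed the filter, with 357 of 412 probesets kept. The contrasts against 0 min share the same 3 untreated arrays and are not independent of each other.

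The promoters show which transcription factor letters these genes carry. Nuclear respiratory factor 1 (NRF1), GA-binding protein (GABP, an ETS factor) and YY1 are known regulators of respiratory chain genes. In the RefSeq promoter table of build GRCh38.p14, which runs from 250 bases before to 50 bases after a gene's start, 35 of the 39 genes had an entry. NDUFB5, NDUFB9, NDUFC2 and NDUFS5 had none. A gene counted where any of its windows held the letters. The NRF1 letters GCATGCGC, searched on both strands, stood in 6 of the 35 genes (17.1%). The shares were 3.68% of all 27305 genes and 4.89% of 15843 coding genes. The 6 sites are shown with 10 bases on each side, on the gene's own strand, with the matched letters in capitals. The letters on the opposite strand read GCGCATGC, and in NDUFA8 and NDUFB4 matches on both strands overlap, of which one is shown.
NDUFA5, chr7:123557959-123557986, minus strand: tatgcccatcGCGCATGCgtcaattttt
NDUFA6, chr22:42090921-42090948, minus strand: ctgtagatgaGCATGCGCagcacccacc
NDUFA8, chr9:122159764-122159791, minus strand: tgccggatgcGCATGCGCaggcgccgtg
NDUFB4, chr3:120596169-120596196, plus strand: agcacttcgcGCATGCGCatatcaccga
NDUFS6, chr5:1801351-1801378, plus strand: cagaagccgtGCGCATGCgttagcgcta
NDUFS7, chr19:1383824-1383851, plus strand: tccggtttccGCATGCGCtccgagccgc

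The YY1 letters AAGATGGC stood in 7 of the 35 genes (20%), against 3.52% of all genes and 4.66% of coding genes. All 7 matches lay on the gene's own strand and began between 11 and 26 bases after the start, and they are shown because the called genes NDUFB8 and NDUFS4 are among them. The letters contain ATG, and whether that is the start codon was not examined here.
NDUFA3, chr19:54102866-54102893, plus strand: cgcggagacaAAGATGGCtgcgagtaag
NDUFA6, chr22:42090730-42090757, minus strand: atgctttggcAAGATGGCggggagcggc
NDUFA7, chr19:8321344-8321371, minus strand: tcgcggacggAAGATGGCgtccgccacc
NDUFA9, chr12:4649114-4649141, plus strand: attgtgggaaAAGATGGCggctgccgca
NDUFB8, chr10:100529837-100529864, minus strand: gaagaaggtgAAGATGGCggtggccagg
NDUFS4, chr5:53560650-53560677, plus strand: tgcctgcagcAAGATGGCggcggtgtca
NDUFS7, chr19:1383914-1383941, plus strand: ggccgaggccAAGATGGCggtgctgtca

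The ETS letters CCGGAAG were in 5 of the 35 genes (14.3%), against 12.2% of all and 16.5% of coding genes. The E-box CACGTG was in 3 (8.57%), against 8.77% and 10.9%. Of the 16 genes with NRF1, ETS or YY1 letters, 2 were called in the F-test or at some time, as were 4 of the 19 whose entry held none of the 3, beside 34.9% of all genes tested. NDUFA6 and NDUFS7 carried both the NRF1 and the YY1 letters, and neither was called. A match is a stretch of letters and not a measured binding site.

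Few complex I genes were called at any time through 480 min after EGF. In limma's moderated F-test over the 6 contrasts, 6 of the 39 genes were called (15.4%), against 27.5% of all genes tested. These were NDUFAF2, NDUFB5, NDUFC1, NDUFA2, NDUFB8 and NDUFB10. NDUFS4, NDUFB9 and NDUFC2 were called in contrasts against 0 min but not in the F-test. In all, 9 of the 39 genes were called in the F-test or at some time and 30 in neither, while 34.9% of all genes were called by this combined criterion. The F-test count was 3 without the first replicate at 0 min and 10 with the array index as a covariate. All-gene F-test counts under these settings are not given here. In the contrast at 480 min, all genes gave 2152 higher and 1040 lower without that replicate. With the covariate they gave 2544 and 1906, in place of 2573 and 1182. The array index is the gap between the median log2 signals of named and of unnamed probesets on an array. It averaged 1.24 ± 0.02 (SD, n = 3) before EGF, and its means at the later times ran from 1.27 to 1.32. In bulk RNA, fewer cells of a kind and less RNA per cell cannot be told apart.

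By the adjusted p, complex I genes were called only from 120 min on, while their unadjusted counts did not rise steadily with time. At 20, 40 and 60 min, limma called 0 of 39 complex I genes, while 9, 4 and 11 of them had an unadjusted p under 0.05 (23.1%, 10.3% and 28.2%, against 20%, 11.8% and 20.4% of all genes). Of all genes, 0.897% were called higher and 0.0843% lower at 20 min, 1.82% and 0.415% at 40 min, and 4.82% and 0.975% at 60 min. At 120 min 2 genes were called higher, NDUFAF2 and NDUFS4, beside 11.2% of all genes higher and 3.21% lower. At 240 min the same 2 were called higher and NDUFB8 and NDUFB10 lower, beside 13.5% higher and 6.21% lower. At 480 min NDUFAF2, NDUFB9 and NDUFC2 were called higher and NDUFC1 lower, beside 15.5% higher and 7.11% lower. The shares of complex I genes called in either direction at these times were 5.13%, 10.3% and 10.3%. At an unadjusted p under 0.05 there were 5, 8 and 8 (12.8%, 20.5% and 20.5%, against 27%, 31.1% and 33.1% of all genes). The time of a call depends on the adjustment over all genes at that time. In limma's contrasts NDUFAF2 changed by 0.778 at 20 min (unadjusted p = 0.0013, adjusted p = 0.081) and was not called. At 120 min it changed by 0.798 (unadjusted p = 0.001, adjusted p = 0.012) and was called.

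**Figure D1:**
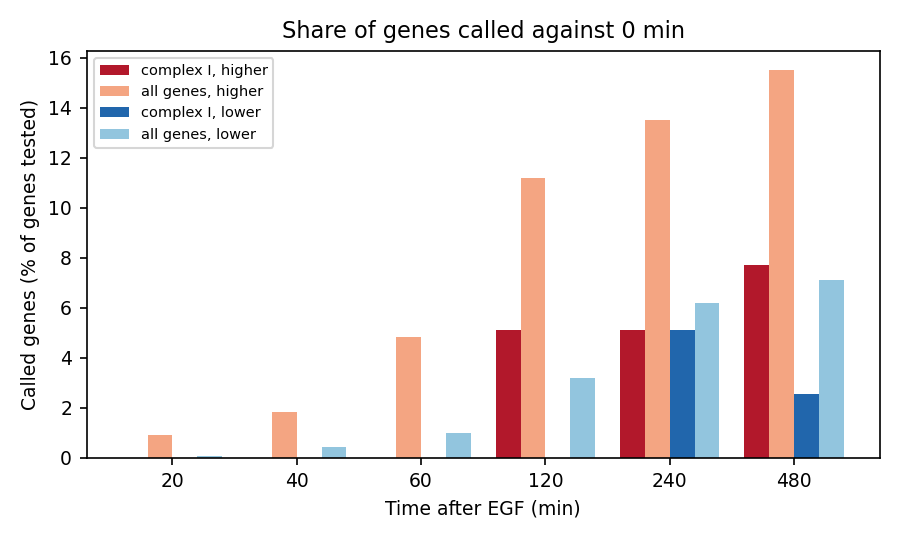
Bars give the percent of genes tested that limma called higher or lower than at 0 min (vertical axis) at each time after EGF in min (horizontal axis), for the 39 complex I genes and for all 16614 genes. Called complex I genes appear from 120 min on, and each of their bars is lower than that of all genes in the same direction.

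How many of the few late calls were higher and how many lower moved with the scaling of the arrays and with the array index. At 480 min quantile normalisation gave 3 higher and 3 lower complex I genes, and 2176 higher and 1697 lower of all genes in place of 2573 and 1182. At 240 min it gave 2 higher and 4 lower, and 1988 and 1496 of all genes in place of 2249 and 1032. At 120 min it gave 1 higher and 1 lower, and 1515 and 1002 of all genes in place of 1862 and 533. With the array index as a covariate there were 0 higher and 2 lower complex I genes at 120 min. There were 3 and 5 at 240 min, and 2 and 5 at 480 min. All genes then gave 1406 higher and 965 lower at 120 min, 2109 and 1662 at 240 min, and 2544 and 1906 at 480 min.

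The count at 120 min also turned on single arrays. It was 5 without replicate 1 at 120 min, 0 without replicate 3 at 120 min or replicate 1 at 0 min, and 1 in 16 other refits that left out an array. All-gene calls at 120 min were 2537 higher and 507 lower without replicate 1, and 1108 and 453 without replicate 3 of that time. Without replicate 1 at 0 min they were 1386 and 399, in place of 1862 and 533. At 480 min the complex I count was 1 without replicate 1 and 2 without replicate 3 of that time. All-gene calls at 480 min were then 1881 higher and 837 lower without replicate 1. Without replicate 3 they were 1758 and 900, in place of 2573 and 1182.

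Over the 39 genes the median change was 0.014, 0.013, 0.112, -0.002, -0.063 and -0.020 at the 6 times in order, and over all genes 0.019, 0.017, 0.026, 0.038, 0.024 and 0.054. The 95% interval of the change lay within 1 log2 unit of 0 at every time for 34 of the 39 genes. Their median standard error was 0.16, against 0.136 for all genes. Between successive times limma called 0 of the 39, with 2, 2, 2, 1 and 2 at an unadjusted p under 0.05, as were 12.2%, 7.83%, 13.9%, 9.15% and 10.8% of all genes. Of all genes, 0.572% were called between 20 and 40 min, 0.229% between 40 and 60 min, 3.49% between 60 and 120 min, 1.54% between 120 and 240 min and 1.47% between 240 and 480 min.

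**Figure D2:**
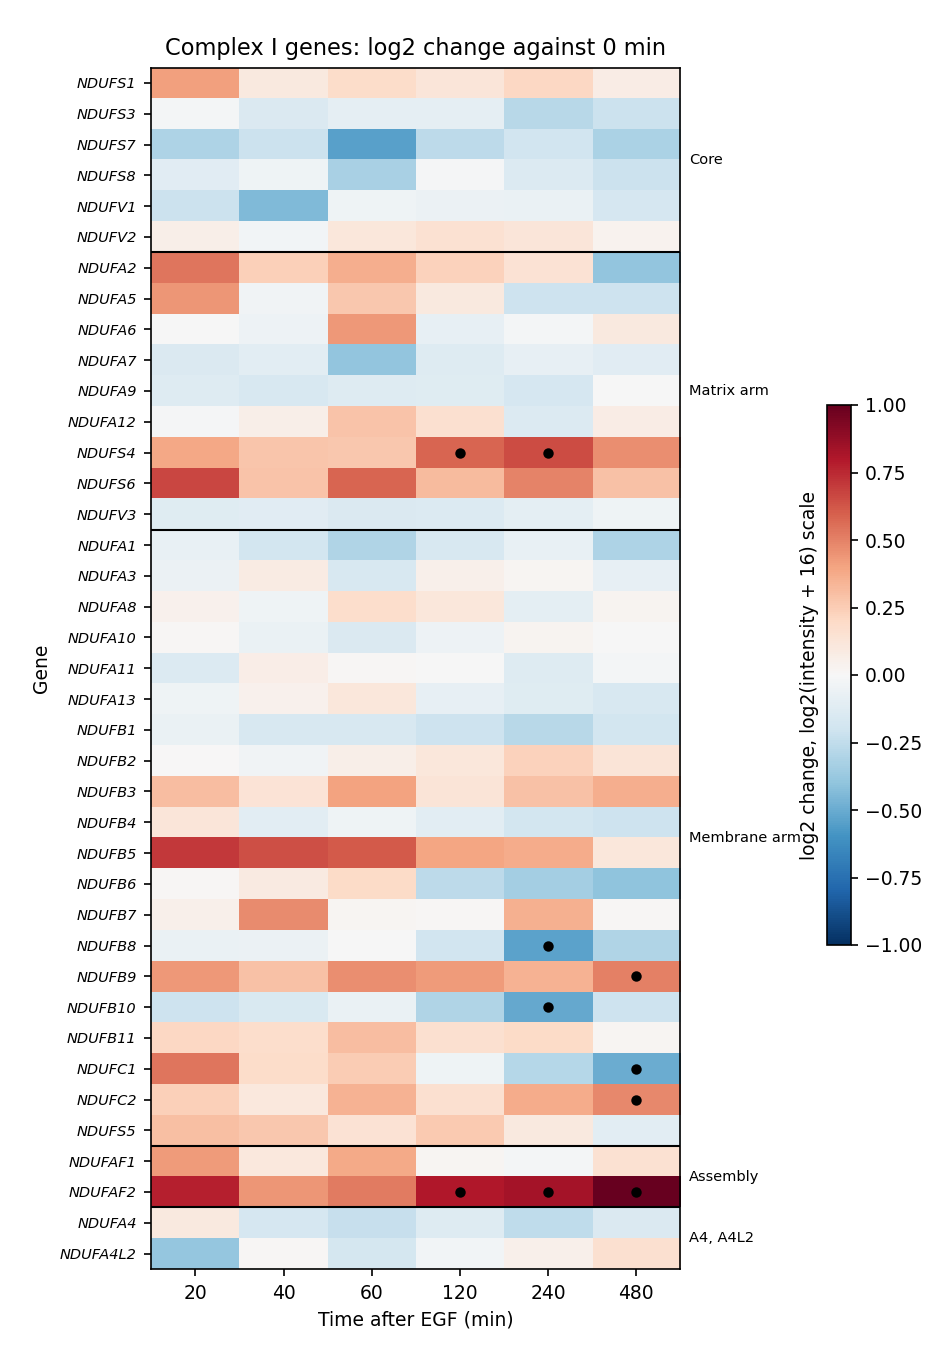
Colour gives the log2 change against 0 min of each of the 39 genes (rows, grouped by role) at each time after EGF in min (columns), and a black dot marks an adjusted p under 0.05. NDUFAF2 reaches 1.00 at 480 min, and the 10 dots fall on 7 genes. None of the 7 is among the 6 core subunits, while 30.9% of all genes were called at some time.

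The core subunits hold the flavin and the iron-sulphur clusters of the matrix arm. Of the 6 measured, limma called 0 in the F-test or at any time, where 34.9% of all genes were. With 6 genes this count is too small to set the core subunits apart. Of the 6, NDUFV1 alone had an unadjusted F-test p under 0.05. NDUFV1, which binds NADH and the flavin, differed most at 40 min, by -0.44 ± 0.12 (adjusted p = 0.075). NDUFS7, which carries the last cluster before ubiquinone, differed most at 60 min, by -0.54 ± 0.21 (adjusted p = 0.14). NDUFS1, the largest subunit, differed by 0.41 ± 0.15 at 20 min (adjusted p = 0.16), and NDUFS8, another cluster protein, by -0.32 ± 0.13 at 60 min (adjusted p = 0.14). NDUFS3, part of the module that binds ubiquinone, came closest to a call, at -0.28 ± 0.10 at 240 min (adjusted p = 0.056). For NDUFV2, a cluster protein beside NDUFV1, the change with the largest size was 0.15 ± 0.14 at 120 min (adjusted p = 0.53). The changes of the core genes ranged from -0.54 to 0.41, with a median of -0.19 at 480 min.

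Among the 9 accessory subunits of the matrix arm, NDUFS4 rose and NDUFA2 was called in the F-test alone. NDUFS4 joins the matrix arm late in assembly and its loss causes Leigh syndrome in people. Its 3 untreated arrays read 6.43, 7.54 and 7.39, and the arrays at 240 min 7.77, 7.70 and 7.85. At 120 min they read 7.44, 7.65 and 8.01. The untreated arrays were thus spread over more than 1 log2 unit, with the first replicate far below the other 2, and the groups at 0 and 240 min did not overlap while those at 0 and 120 min did. The change was 0.58 ± 0.20 at 120 min (adjusted p = 0.049) and 0.65 ± 0.20 at 240 min (adjusted p = 0.021). Without the first untreated replicate it was 0.31 at 240 min (adjusted p = 0.15) and 0.23 at 120 min (adjusted p = 0.34). With no signal filter, which brings in 3 dim probesets beside the 4 kept, it was 0.09 at 240 min (adjusted p = 0.89) and -0.12 at 120 min (adjusted p = 0.84).

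NDUFA2, a small subunit with a thioredoxin-like fold, passed the F-test at an adjusted p of 0.0071 without being called at any time. Its arrays read 6.92, 7.50 and 7.35 at 0 min, 7.67, 8.02 and 7.69 at 20 min, and 6.82, 6.59 and 7.19 at 480 min. All 3 arrays at 20 min lay above the untreated ones, and those at 480 min overlapped them from below. The change was 0.53 ± 0.17 at 20 min (adjusted p = 0.13) and -0.39 ± 0.17 at 480 min (adjusted p = 0.12).

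The other 7 genes of the matrix arm were not called. NDUFS6, a zinc-binding subunit, differed by 0.67 ± 0.24 at 20 min (adjusted p = 0.16). NDUFA5 reached 0.45 ± 0.32 at 20 min (adjusted p = 0.46), and NDUFA6, a protein of the LYR family, 0.44 ± 0.26 at 60 min (adjusted p = 0.36). The largest change of NDUFA7 was -0.40 ± 0.16 at 60 min (adjusted p = 0.16), and that of NDUFA12, the subunit that takes the place of NDUFAF2 as assembly ends, 0.29 ± 0.27 at 60 min (adjusted p = 0.58). NDUFA9, which binds NADPH, stayed between -0.169 and -0.001. NDUFV3 had the smallest spread over time of the 39 genes: its changes lay within 0.14 log2 units of 0, and its 21 arrays read between 6.52 and 6.88.

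The 20 accessory subunits of the membrane arm held 4 genes called in the F-test, where 27.5% of all genes were, and 5 called at some time, where 30.9% of all genes were. NDUFB8, whose protein is used as a marker of assembled complex I because it is unstable outside the complex, fell. Its arrays read 8.55, 8.24 and 8.0 at 0 min, 7.71, 7.75 and 7.73 at 240 min, and 8.01, 7.85 and 8.02 at 480 min. The 3 arrays at 240 min were almost equal and all below the untreated ones, while at 480 min the groups met. NDUFB8 fell by 0.53 ± 0.12 at 240 min (adjusted p = 0.0024, and 0.0087 in the F-test), and it stayed called at 240 min in all 21 refits that left out an array. All 3 kept probesets were lower at 240 min, by -0.55 to -0.28. A further 5 probesets that also name SEC31B, not used in the fit, had a median change of -0.43. With no filter, which adds 2 dim probesets, the change was -0.23 (adjusted p = 0.55).

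NDUFB10, a subunit on the intermembrane side, also fell at 240 min. It read 7.58, 7.34 and 7.67 at 0 min, 7.09, 6.87 and 7.12 at 240 min, and 7.35, 7.36 and 7.27 at 480 min. The groups at 0 and 240 min did not overlap, while at 480 min 2 of the 3 arrays lay above the lowest untreated one. It fell by 0.51 ± 0.12 (adjusted p = 0.0048, and 0.045 in the F-test). At 240 min 8 of 9 probesets were lower, over a range from -0.46 to 0.10. None of the 9 fell by as much as the gene value. The call at 240 min held in all 21 refits that left out an array, and the F-test call in 7 of them. The mean over probesets in place of the median gave -0.26 (adjusted p = 0.054).

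NDUFC1, a small subunit near the proximal proton pump, had the smallest adjusted p of the 39 genes in the F-test, 0.0019. It read 6.55, 7.34 and 7.16 at 0 min, 7.58, 7.72 and 7.35 at 20 min, and 6.55, 6.31 and 6.68 at 480 min. At 20 min all arrays lay above the untreated ones, and at 480 min they lay below untreated replicates 2 and 3 but overlapped replicate 1. The change was 0.54 ± 0.18 at 20 min (adjusted p = 0.14), and NDUFC1 fell by 0.50 ± 0.18 at 480 min (adjusted p = 0.049). At 480 min 7 of its 12 kept probesets were lower, over a range from -1.40 to 0.40, and with no filter the change was -0.04 (adjusted p = 0.93).

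NDUFC2, its partner in the same module, rose at 480 min. The untreated arrays read 7.60, 7.53 and 7.57, and those at 480 min 8.11, 7.87 and 8.16. The untreated arrays were close together, and the groups did not overlap. The rise was 0.48 ± 0.14 (adjusted p = 0.014), with 8 of 8 probesets higher. Without the first replicate at 480 min it was 0.45 (adjusted p = 0.057), and without replicate 3 of that time 0.42 (adjusted p = 0.070).

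NDUFB9, a LYR protein that holds an acyl carrier protein in the membrane arm, rose at 480 min. It read 8.04, 8.54 and 8.65 at 0 min and 8.95, 8.75 and 9.05 at 480 min. The groups did not overlap, and the first untreated replicate was the lowest of the 21 arrays. The rise was 0.50 ± 0.17 (adjusted p = 0.032), with 7 of 7 probesets higher. It was 0.32 (adjusted p = 0.20) without the first untreated replicate and 0.27 (adjusted p = 0.11) with the array index as a covariate.

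NDUFB5, a subunit of the distal membrane arm, passed the F-test (adjusted p = 0.043) but was called at no time. It read 8.34, 8.93 and 8.88 at 0 min, 9.40, 9.55 and 9.33 at 20 min, 9.42, 9.37 and 9.29 at 40 min, and 8.95, 8.51 and 9.04 at 480 min. The arrays at 20 and 40 min all lay above the untreated ones, and those at 480 min overlapped them. The change at 20 min was 0.71 ± 0.20 (adjusted p = 0.094). The F-test call held in 9 of the 21 refits that left out an array.

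**Figure D3:**
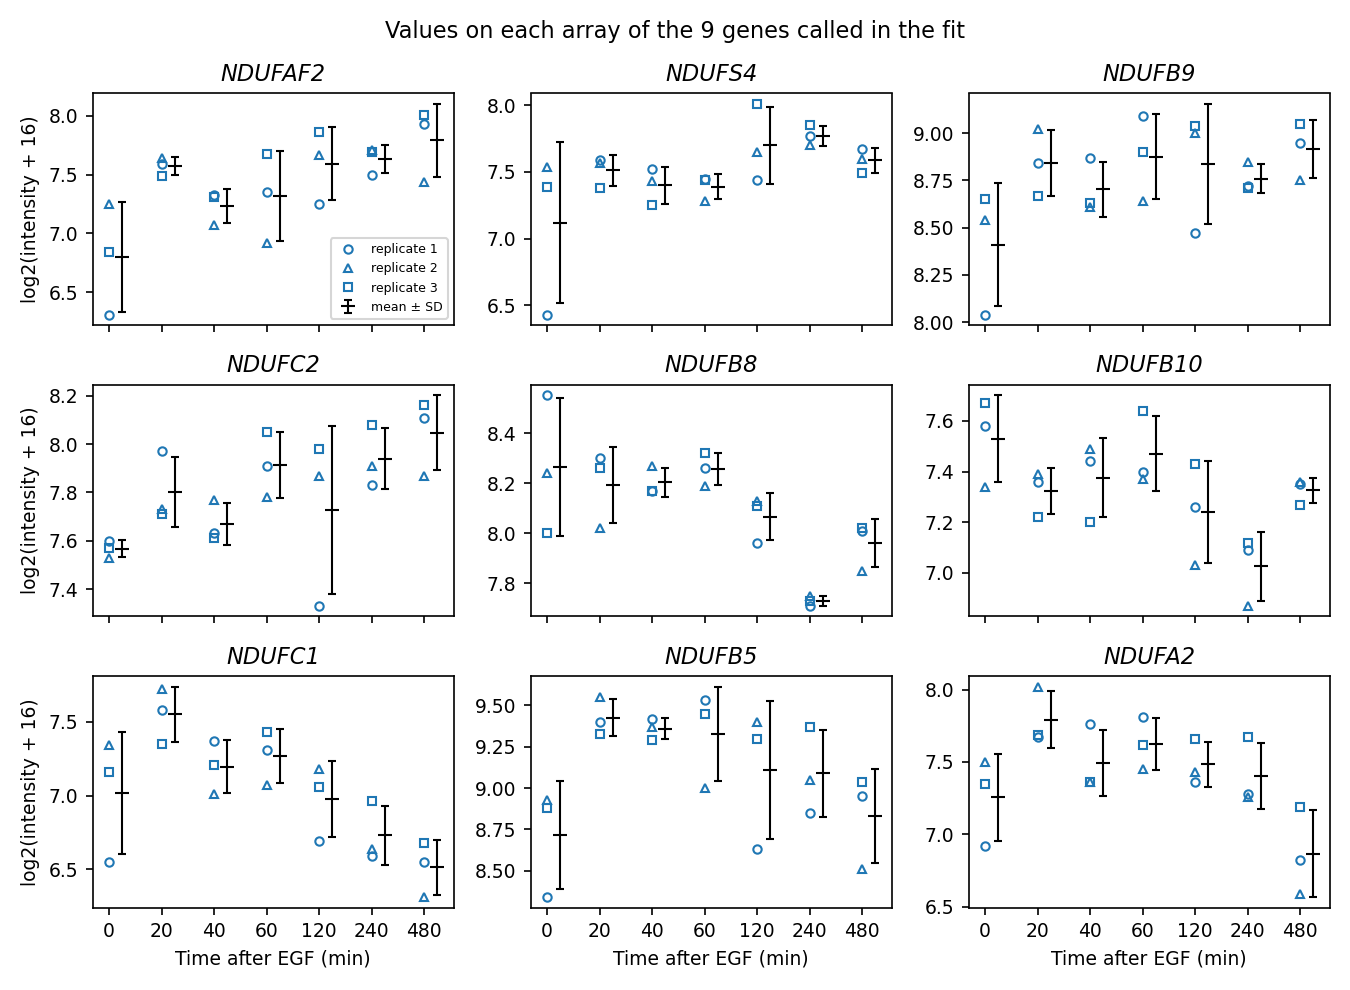
Levels in log2(intensity + 16) (vertical axes, a scale for each gene) against time after EGF in min (horizontal axes) on each of the 3 arrays per time, for the 9 genes called in the F-test or at any time; the black mark is the mean ± SD. NDUFB8 lies between 7.71 and 7.75 at 240 min, below all untreated arrays, and the first untreated replicate of NDUFS4 lies at 6.43, below the other 20 arrays.

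The remaining 14 genes of the membrane arm were not called. NDUFB7 reached 0.47 ± 0.23 at 40 min (adjusted p = 0.43), NDUFB6 -0.40 ± 0.27 at 480 min (adjusted p = 0.33) and NDUFB3 0.40 ± 0.23 at 60 min (adjusted p = 0.34). NDUFA1 reached -0.31 ± 0.15 at 480 min (adjusted p = 0.16), NDUFB11 0.31 ± 0.20 at 60 min (adjusted p = 0.42), and NDUFS5, a cysteine-rich subunit of the intermembrane side, 0.30 ± 0.12 at 20 min (adjusted p = 0.19). The changes of NDUFA3, NDUFA8, NDUFA10, NDUFA11 and NDUFA13 stayed within 0.18 log2 units of 0. The largest changes of NDUFB1, NDUFB2 and NDUFB4 were -0.28 ± 0.14 and 0.23 ± 0.13 at 240 min and -0.21 ± 0.12 at 480 min.

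Of the assembly factors, NDUFAF2 rose. NDUFAF2 is a paralog of the subunit NDUFA12 that sits on late assembly intermediates and leaves when the matrix arm is completed. Its arrays read 6.31, 7.25 and 6.84 at 0 min, 7.59, 7.64 and 7.49 at 20 min, 7.25, 7.67 and 7.86 at 120 min, 7.50, 7.71 and 7.69 at 240 min, and 7.93, 7.44 and 8.01 at 480 min. The arrays at 20, 240 and 480 min all lay above the untreated ones, while the lowest at 120 min read the same as the highest untreated one. The change was 0.78 ± 0.21 at 20 min (adjusted p = 0.081), 0.80 ± 0.21 at 120 min (adjusted p = 0.012), 0.84 ± 0.21 at 240 min (adjusted p = 0.0064) and 1.00 ± 0.21 at 480 min (adjusted p = 0.0013), the last being the largest change of any of the 39 genes.

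The rise of NDUFAF2 at 480 min held in all 21 refits that left out an array, at 0.75 to 1.22, and 8 of 9 kept probesets were higher. It turned on which probesets entered: with the filter at the 75th percentile it was 0.10 (adjusted p = 0.59), and with no filter 0.45 (adjusted p = 0.052). NDUFAF1, an assembly factor of the membrane arm, was not called, at 0.43 ± 0.17 at 20 min (adjusted p = 0.19). For the 39 genes together, the first untreated replicate was the lowest of the 3 in 17 (43.6%), against 37.6% of all genes.

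NDUFA4 read 7.84, 8.11 and 7.94 at 0 min and 7.78, 7.70 and 7.63 at 240 min, a change of -0.26 ± 0.11 (adjusted p = 0.11). The groups did not overlap, but the sign depended on the scoring: the change was 0.09 (adjusted p = 0.59) with the mean over probesets and -0.32 (adjusted p = 0.045) after quantile normalisation. NDUFA4L2, known as a gene induced by low oxygen, read 6.79, 6.50 and 5.98 at 0 min and 5.76, 5.97 and 6.38 at 20 min. The groups overlapped, and the change of -0.39 ± 0.22 (adjusted p = 0.32) was its largest.

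Genes around the complex gave a frame for these values. Of 18 further assembly and carrier genes of complex I that the name rule leaves out, such as ACAD9, ECSIT and TIMMDC1, 1 was called in the F-test (27.5% of all genes were). It was NDUFAF4, a factor for the early matrix arm module, which the array lists under an older symbol. It read 6.20, 7.13 and 7.25 at 0 min and 7.86, 8.09 and 8.38 at 120 min, with no overlap. NDUFAF4 rose by 1.25 ± 0.23 at 120 min (adjusted p = 5.0e-04), on 4 kept probesets. NDUFAF7, a methyltransferase, and NDUFAF5, a hydroxylase acting on NDUFS7, were not called, with changes of 0.46 ± 0.17 at 120 min and -0.36 ± 0.14 at 40 min. At 480 min 2 of the 18 were called higher, NDUFAF4 and TMEM70, beside 15.5% of all genes. TMEM70, an assembly factor named after its values were seen, rose by 0.75 ± 0.23 (adjusted p = 0.023) and was not called in the F-test (adjusted p = 0.18). Its change was 0.21 with no filter (adjusted p = 0.58), and its call was also lost without replicate 1 at 0 min (0.65, adjusted p = 0.087) or without replicate 1 (0.63, adjusted p = 0.11) or 3 (0.61, adjusted p = 0.12) at 480 min.

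In the other respiratory complexes, the F-test called 4 of 6 genes of complex II and 2 of 15 of complex III. It called 5 of 28 of complex IV and 2 of 19 of ATP synthase, beside 27.5% of all genes. SDHB, the iron-sulphur subunit of complex II, rose by 0.90 ± 0.13 at 240 min (adjusted p = 3.8e-05), while SDHC and SDHD, which anchor it in the membrane, fell by 0.47 ± 0.12 and 0.42 ± 0.13 at 480 min (adjusted p = 0.0056 and 0.026). In complex III, UQCRB fell by 0.77 ± 0.17 at 40 min (adjusted p = 0.010), a call lost with the mean over probesets (-0.19, adjusted p = 0.59). UQCR10 was called in the F-test alone (adjusted p = 0.029), and UQCRFS1, the Rieske protein, was not called (adjusted p = 0.097).

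Among the complex IV genes, COA7, an assembly factor, rose by 1.26 ± 0.18 at 240 min (adjusted p = 2.1e-05). COX17, a copper chaperone, rose by 0.64 ± 0.18 (adjusted p = 0.012) and COX15, needed for haem A synthesis, fell by 0.54 ± 0.12 (adjusted p = 0.0017), both at 480 min. In ATP synthase, ATP5MC3, which encodes the ring subunit c, rose by 0.67 ± 0.18 at 480 min (adjusted p = 0.0098) and ATP5F1E by 0.44 ± 0.15 at 120 min (adjusted p = 0.049), while ATP5MF was not called in the F-test (adjusted p = 0.15). With no filter the change of ATP5MC3 was 0.008 (adjusted p = 0.98), and ATP5F1E lost its call after quantile normalisation (adjusted p = 0.062).

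Genes that control nuclear and mitochondrial respiratory genes were called in 7 of 15 cases in the F-test, beside 27.5% of all genes. PPARGC1A, a coactivator of NRF1, read 6.12, 6.38 and 6.47 at 0 min and 5.30, 5.09 and 5.09 at 480 min, and it fell by 1.17 ± 0.14 (adjusted p = 2.5e-06). Its relative PPRC1 read 7.45, 7.20 and 7.23 at 0 min and 8.27, 8.29 and 8.43 at 120 min, and it rose by 1.04 ± 0.11 (adjusted p = 8.1e-07). GABPB1, a subunit of GA-binding protein, rose by 1.01 ± 0.12 at 120 min (adjusted p = 1.9e-06). TFB2M, a factor for mitochondrial transcription named after its values were seen, rose by 1.41 ± 0.15 at 240 min (adjusted p = 3.3e-07). For each of these 4 genes the arrays at the named time did not overlap the untreated ones. The genes were picked by a small p or after their values were seen, and the times by the largest change. The lack of overlap follows from that choice and adds no support. The median of the 39 complex I genes at 120, 240 and 480 min lay within 0.063 of 0.

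**Figure D4:**
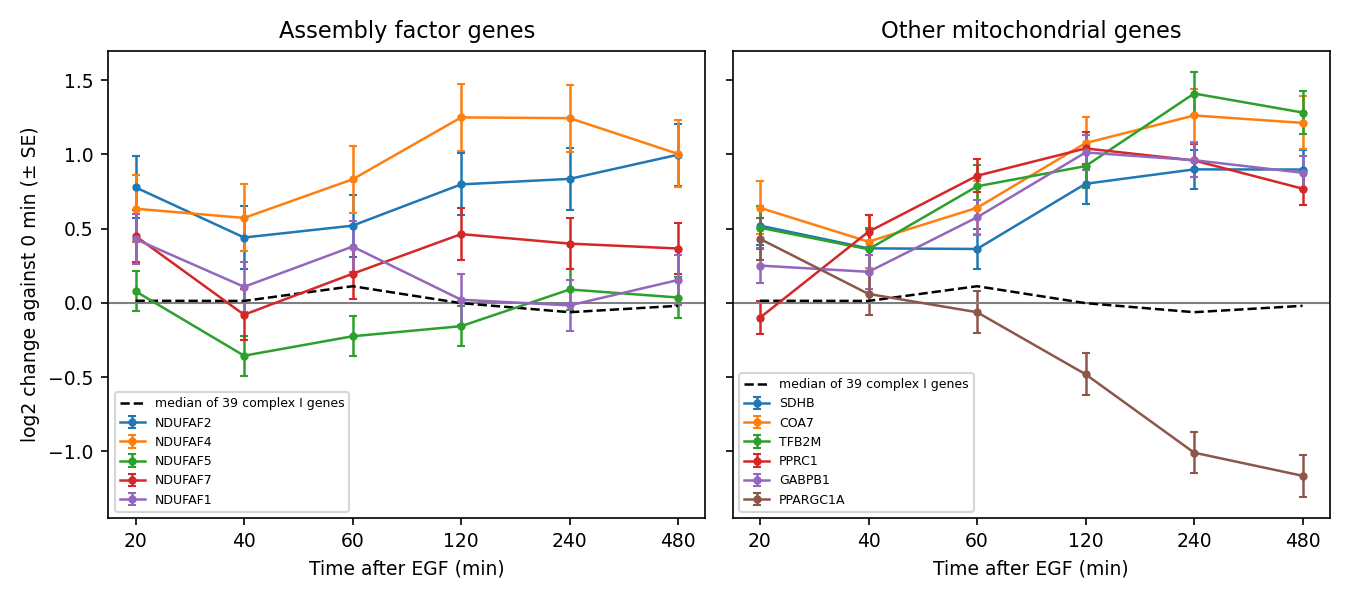
Log2 change against 0 min ± limma's standard error (vertical axis) by time after EGF in min (horizontal axis) for 5 assembly factor genes of complex I (left) and 6 other mitochondrial genes (right), with the median of the 39 complex I genes as a dashed line. NDUFAF4 and NDUFAF2 reach 1.25 and 1.00, PPARGC1A reaches -1.17 at 480 min, and the dashed line stays between -0.063 and 0.112.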

How the data were processed

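The values deposited were linear intensities, a single intensity for each probeset on each array. The tools named are Affymetrix Expression Console 1.1 and PLIER, per the submitters' processing notes, with settings not given in the sources used here. Array medians lay between 20.44 and 20.56, replicate correlations between 0.944 and 0.988. Intensities became log2(intensity + 16). Probesets with 1 annotated symbol and a mean of at least 5.18 (20.2 intensity units, the median of all probesets) were kept, and a gene was the median of at least 3. A single model over 21 arrays was fitted across 16614 genes with limma 3.58.1 in R 4.3.3 (data.table, version 1.17.8), two-sided, with Benjamini-Hochberg adjustment, and tested on simulated data. The 12 probesets naming a complex I gene and another gene were left out. Described in full were complex I genes called in any test, NDUFA4, NDUFA4L2 and the flattest gene, and from each other list the 3 genes with the smallest adjusted F-test p. The complex I genes, lists and rules were chosen with earlier results of these data known. The number of arrays limits the precision. Alternatives were 2 scalings, pseudocounts of 1 and 64, other filters, other probeset summaries, a replicate block, the array index, 6 arrays per contrast, and leaving out each array. Figures used matplotlib 3.10.9.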

Additional observations from a re-analysis of the deposited data

How the results depend on the processing

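Counts of called complex I genes differed from those reported by over 1.5 times as follows. At 40 min (0 reported) the count was 1 after quantile normalisation, median centring, a pseudocount of 64 or no filter, and 2 with the array index. All genes there gave 316 higher and 115 lower, 289 and 108, 303 and 70, 281 and 55, and 440 and 243 in that order. As reported they gave 302 and 69. At 60 min (0 reported) the complex I count was 2 with the filter at the 75th percentile. With that filter 810 of 13303 genes were called higher and 267 lower, in place of 801 and 162 of 16614. At 120 min (2 reported) the complex I count was 1 with a pseudocount of 1, at least 1 probeset, the replicate block or only the 6 arrays of the contrast. It was 0 with the filter at the 75th percentile. All genes gave 1792 higher and 524 lower with a pseudocount of 1, 1856 and 542 with at least 1 probeset, and 1798 and 499 with the block. With the filter they gave 1877 and 677 of 13303, in place of 1862 and 533 of 16614. With the array index the complex I count was 8 at 240 min (4 reported), 7 at 480 min (4 reported) and 10 in the F-test (6 reported). All genes gave 2109 higher and 1662 lower at 240 min and 2544 and 1906 at 480 min, in place of 2249 and 1032 and of 2573 and 1182. At 480 min the complex I count was 2 with no filter or only the 6 arrays. With no filter 2434 of 18589 genes were called higher and 1056 lower. All-gene counts for only 6 arrays and for the F-test under other settings are not given here. Leaving out each array in turn gave complex I counts of 0 to 2 at 20 min, 0 to 1 at 40 min, 0 to 1 at 60 min, 0 to 5 at 120 min, 3 to 5 at 240 min, 1 to 4 at 480 min and 3 to 7 in the F-test. All-gene counts moved too: without replicate 3 at 20 min they were 881 higher and 295 lower at that time, in place of 149 and 14. The causes were not tested.

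The sign turned for NDUFS4 at 120 min with no filter (-0.122), for NDUFA4 at 240 min (0.092) and UQCR10 at 60 min (-0.001) with the mean over probesets, and for UQCRFS1 at 480 min with the filter at the 75th percentile (-0.37). Of the single-gene values under settings that kept all arrays or only 6, 329 kept direction and side of the threshold, 46 lost the call, 4 gained one and these 4 changed sign. The call of UQCRB at 40 min was lost with no filter (-0.37, adjusted p = 0.31), with the 75th percentile (-0.07, adjusted p = 0.92) and with the mean over probesets (-0.19, adjusted p = 0.59). That of ATP5MC3 at 480 min was lost with no filter (0.008, adjusted p = 0.98) and with the 75th percentile (0.11, adjusted p = 0.58). With the array index the median over the complex I genes was -0.017 at 60 min, -0.108 at 120 min and -0.136 at 480 min. The pairing of same-numbered replicates was not borne out: their deviations correlated at -0.54 to 0.56 and 6 of 21 arrays correlated best with their own number. With the replicate as a block the complex I counts were 5 in the F-test, 1 at 120 min, 4 at 240 min and 3 at 480 min. All genes then gave 1798 higher and 499 lower, 2159 and 977, and 2518 and 1116 at these 3 times.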
